A study of Mus musculus with 12 samples.

Results

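The 10 genes described here are known p53 targets: Zmat3, Phlda3, Btg2, Tob1, Gtse1, Psrc1, Plk2, Plk3, Gdf15 and Fbxw7. They were grouped under a role in restraining growth signalling or the cell cycle, which was not tested here for any of them. The genes were chosen by name from that literature role, with earlier results of these data known. All 10 were found among the 25078 genes of the deposited tables. All 10 also passed the filter on low counts, which kept 14599 genes. RNA was sequenced from LSK cells, the lineage-negative, Sca1-positive, c-Kit-positive bone marrow fraction that holds mouse stem cells and multipotent progenitors. Wild-type (WT) mice, 3 in number, served as donors and are called control in the sample titles; their genotype is labelled WT, while the library names mark WT animal 2 as WT and WT animals 1 and 3 as C, a code not explained there. The other 3 donors were mice at the preleukemic stage with Cbfb-MYH11 (CM), a fusion gene that inv(16) creates in acute myeloid leukemia. The library names mark all CM animals as CHW, a code that is not explained there either. The sorted cells of every animal were either exposed to 3.5 Gy (IR) or incubated without irradiation (NIR), and all were harvested at 24 h. The 4 groups thus had 3 libraries each, with an NIR and an IR library from every one of the 6 animals. How the fusion was switched on, and the age of the mice, were not given in the sources used here.

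Ionizing radiation breaks DNA, and the kinases that sense the breaks stabilise p53, which binds paired half-site elements near its target genes and raises their transcription. The best known outputs are arrest through Cdkn1a and death through the BCL2 family. The genes here form another arm, which acts on growth more indirectly. ZMAT3 is a zinc finger RNA-binding protein that controls splicing and mRNA stability. PHLDA3 is a pleckstrin homology domain protein that competes with AKT for membrane lipids. BTG2 and TOB1 belong to the BTG/TOB family, which recruits the CCR4-NOT deadenylase to mRNAs. GTSE1 and PSRC1 bind microtubules, PLK2 and PLK3 are polo-like kinases of the stress response, GDF15 is a secreted TGF-beta superfamily factor, and FBXW7 is the substrate receptor of an SCF ubiquitin ligase that degrades cyclin E and MYC. In stem and progenitor cells this network limits expansion after genotoxic stress.

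Depth was 68.5 to 110.8 M gene counts a library, and the member with the fewest counts was Gdf15 (41 to 219 counts a library). Kit stood at 148 to 284 CPM (gene counts scaled to library size with TMM), Ly6a, which encodes Sca1, at 42.0 to 457 CPM and Cd34 at 230 to 744 CPM in the 12 libraries. The lineage genes Cd3e and Ly6g stood at or below 0.389 CPM in each, but other genes of their marker lists stood higher. The sum of 9 T and NK cell markers, led by Gzmb, was 45.8 to 167 CPM in WT. It was 56.9 and 87.5 CPM in CM animal 2 and 208 to 289 CPM in CM animals 1 and 3. The list did not move as 1 with this sum. Without irradiation, Gzmb alone of the 6 tested genes had a higher fitted level in CM than in WT (log2 1.31). The other 5 were lower, with Il2rb at -3.75 (adjusted p = 0.0434, edgeR), where 0.685% of all genes were called lower. The sum of the neutrophil markers, led by Mpo, is given below. The libraries of CM animals 1 and 3 stood apart from those of CM animal 2 in markers of other cells. The summed level of 9 mast cell and basophil markers, none at 0 in all libraries and led by Cpa3, was 1397 and 1834 CPM in the NIR libraries of CM animals 1 and 3 and 1598 and 1037 CPM in their IR libraries. It was 307 and 367 CPM in CM animal 2 and 252 to 696 CPM in WT. Without irradiation, 7 of these 9 markers had a higher fitted level in CM than in WT, Cpa3 among them (log2 2.85). The 2 others, the basophil protease genes Prss34 and Mcpt8, were lower (-3.10 and -0.20). The sum of 9 monocyte and macrophage markers, led by Ccr2, was 1708 to 2831 CPM in those 4 libraries, 452 and 598 CPM in CM animal 2 and 881 to 1803 CPM in WT. Sums of other markers are given by irradiation, with no test. The summed level of 15 erythroid markers, 4 of them at 0 in every library, was 27.4 to 202 CPM in WT NIR and 12.8 to 31.0 CPM in WT IR, and 38.3 to 148 CPM and 24.4 to 108 CPM in CM. That of 12 neutrophil markers was 3526 to 4141 CPM in WT NIR and 4529 to 5403 CPM in WT IR, and 3159 to 4028 CPM and 3419 to 4379 CPM in CM. Without irradiation, 8 of the 11 tested neutrophil markers had a lower fitted level in CM than in WT and 3 a higher one, Mmp8 among them (log2 2.66). Elane, S100a8 and S100a9 passed as lower (-1.39, -3.80 and -3.99, adjusted p = 0.0434, 0.0376 and 0.0435, edgeR), where 0.685% of all genes did. The part of these markers in the changes of the 10 genes was not tested. In bulk RNA, fewer cells of a type and less RNA per cell cannot be told apart.

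Per kilobase of exon, the members spanned a wide range. In WT NIR cells Gtse1 stood highest, at 16.9 ± 2.65 RPKM, followed by Psrc1 at 10.3 ± 0.833 RPKM and Fbxw7 at 6.93 ± 0.176 RPKM (SD, n = 3). Btg2 (6.10 ± 1.03 RPKM) and Tob1 (5.90 ± 0.651 RPKM) came next, and their libraries overlapped each other. Zmat3 (1.56 ± 0.184 RPKM), Phlda3 (1.29 ± 0.560 RPKM) and Gdf15 (0.551 ± 0.149 RPKM) stood lowest. After irradiation of WT cells the order by level differed: Psrc1 stood at 41.2 ± 2.91 RPKM and Gtse1 at 35.6 ± 3.65 RPKM, and Zmat3 and Phlda3 came next at 18.7 ± 1.28 and 18.6 ± 2.23 RPKM, with overlapping libraries. Gdf15 stayed last in each of the 4 groups.

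**Figure D1:**
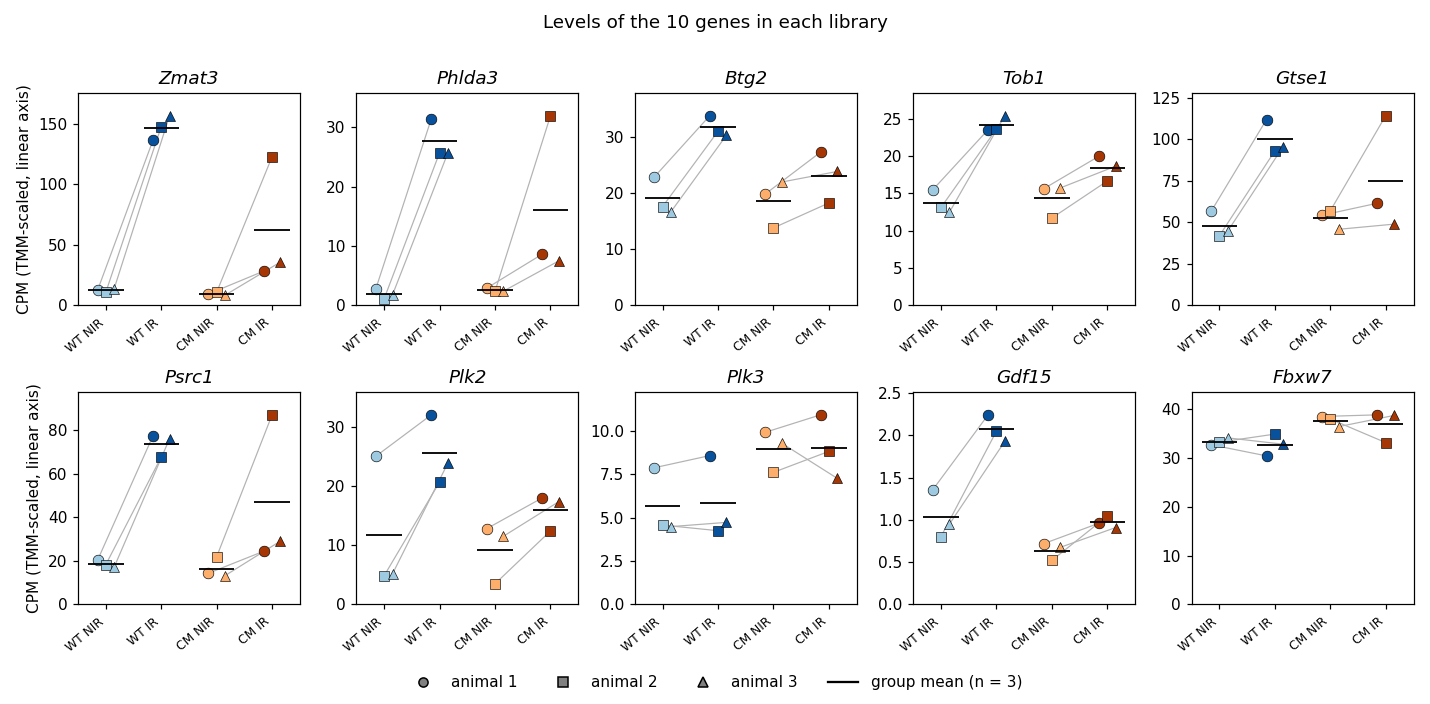
TMM-scaled CPM (linear axis from 0) of each gene in the 12 libraries; symbols mark the animal, grey lines join the NIR and IR library of an animal and bars are group means (n = 3). Zmat3 stands at 136 to 157 CPM in WT IR, while in CM IR animal 2 stands at 123 CPM and animals 1 and 3 at 28.3 and 35.8 CPM.

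Irradiation of WT cells was followed by a rise of Zmat3 and Phlda3, the members with the largest fitted changes. Zmat3 (chromosome 3, 32334794 to 32365665, minus strand, mm10) stood at 12.3, 10.8 and 13.7 CPM in the NIR libraries of WT animals 1, 2 and 3 and at 136, 148 and 157 CPM in their IR libraries. Every IR library lay roughly an order of magnitude above every NIR library. The log2 fold change was 3.58 ± 0.48 (SE; adjusted p = 0.0301, edgeR). In CM cells Zmat3 stood at 9.33, 10.9 and 8.38 CPM without and at 28.3, 123 and 35.8 CPM after irradiation. The IR libraries again lay above all NIR libraries, and that of animal 2 lay far above those of animals 1 and 3. The fitted change in CM was 2.71 ± 0.47 and did not pass (adjusted p = 0.309). Zmat3 overlaps the antisense gene 4930429B21Rik over 177 bases, a gene with a mean of 26 counts against 5353 for Zmat3.

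Phlda3 (chromosome 1, 135766085 to 135769134, plus strand) was low without irradiation, at 2.83, 1.15 and 1.78 CPM in WT and 2.90, 2.40 and 2.39 CPM in CM animals 1, 2 and 3. After irradiation it stood at 31.4, 25.7 and 25.7 CPM in WT and at 8.61, 31.9 and 7.49 CPM in CM. The IR library of CM animal 2 stood above those of the WT animals, and those of CM animals 1 and 3 stood below them. The log2 fold change was 3.85 ± 0.56 in WT (adjusted p = 0.0414) and 2.64 ± 0.53 in CM (adjusted p = 0.576). Phlda3 opposes AKT, and the transcripts of that pathway were looked at beside it. Of 16 AKT pathway genes, among them Akt1, Phlda1 and Phlda2, 0 passed in WT or CM, with medians of -0.02 and -0.03 on the log2 scale against -0.0089 and -0.0012 over all genes. The member with the smallest p in WT was Phlpp1, a phosphatase of AKT (-0.29 ± 0.15, adjusted p = 1).

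The BTG/TOB genes had smaller fitted changes. Tob1 (chromosome 11, 94211454 to 94215492, plus strand) stood at 15.5, 13.1 and 12.4 CPM in WT NIR and at 23.5, 23.6 and 25.4 CPM in WT IR. The groups did not overlap, and the IR libraries lay within 2 CPM of each other. The log2 fold change of 0.82 ± 0.14 did not pass without an animal term (adjusted p = 0.0737) and passed with the animal as a replicate block (adjusted p = 0.0184). In CM, Tob1 stood at 15.6, 11.7 and 15.7 CPM in NIR and 19.96, 16.6 and 18.6 CPM in IR. Each CM animal was higher after irradiation, and the groups were separated by less than 1 CPM (0.36 ± 0.14, adjusted p = 0.99996, and 0.578 with the replicate block).

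Btg2 (chromosome 1, 134074865 to 134079155, minus strand) stood at 22.9, 17.6 and 16.7 CPM in WT NIR and at 33.9, 31.1 and 30.3 CPM in WT IR, again without overlap. Its log2 fold change was 0.73 ± 0.20 (adjusted p = 0.409, and 0.0203 with the replicate block). In CM it stood at 19.9, 13.8 and 22.0 CPM in NIR and 27.4, 18.3 and 23.9 CPM in IR. The IR library of animal 2 lay below the NIR libraries of the other CM animals, so the groups overlapped. Each CM animal was still higher after irradiation (0.32 ± 0.20, adjusted p = 0.99996, and 0.593 with the replicate block). The relatives Btg1, Btg3 and Tob2 and 9 CCR4-NOT subunits did not pass in either genotype (0 of 12 each, medians -0.06 in WT and -0.04 in CM). Tob2 had 0.16 ± 0.16 in WT and Btg1 -0.07 ± 0.48 (adjusted p = 1 for both). Btg1 stood at 235 and 252 CPM in the NIR libraries of CM animals 1 and 3, against 70.0 CPM in CM animal 2 and 71.3 to 108 CPM in WT.

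Btg2 and Plk2 are also known as immediate early genes, and the cAMP response element, a motif of that class, stands in both promoters. The RefSeq promoter table (GRCm38.p6, the assembly of mm10; 250 bases before to 50 after a start site) held 14 windows for 9 members and none for Zmat3. The 8-letter element TGACGTCA, which reads the same on both strands, was found in 2 of the 14 windows, those of Btg2 and Plk2, and in 1.79% of the 32851 windows of all genes. The stretches below show it in capitals, with the CCAAT box (CCAAT) and the letters TTTAAA where present; the Btg2 stretch is chr1:134079180-134079335, minus strand, 180 to 25 bases before the start site, and the Plk2 stretch is chr13:110394974-110395034, plus strand, 70 to 10 bases before it. Both lie outside annotated genes of GENCODE M21. The match is a description of the letters only.
Btg2: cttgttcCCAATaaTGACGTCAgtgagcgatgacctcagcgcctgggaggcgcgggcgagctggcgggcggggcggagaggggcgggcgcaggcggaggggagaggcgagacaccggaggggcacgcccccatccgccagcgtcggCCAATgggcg
Plk2: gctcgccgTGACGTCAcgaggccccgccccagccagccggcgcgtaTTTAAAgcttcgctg

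Plk2 (chromosome 13, 110395044 to 110400843, plus strand) was the member that varied most between NIR animals. It stood at 25.1, 4.87 and 5.17 CPM in WT NIR and at 12.8, 3.49 and 11.5 CPM in CM NIR. After irradiation it stood at 32.1, 20.7 and 23.9 CPM in WT and at 18, 12.4 and 17.4 CPM in CM. The NIR library of WT animal 1 was above 2 of the WT IR libraries, so the WT groups overlapped, while WT animals 2 and 3 were 4.25-fold and 4.62-fold higher in their IR libraries and WT animal 1 was 1.28-fold higher. The CM groups overlapped in the same way, with within-animal ratios of 1.41, 3.56 and 1.51 in animals 1, 2 and 3. The fitted change was 1.13 ± 0.63 in WT and 0.78 ± 0.63 in CM, neither passing (adjusted p = 1 and 0.99996, and 0.180 and 0.748 with the replicate block). The 3 NIR libraries with the highest Plk2 also had the highest summed level of 18 immediate early genes, led by Klf6 and with none at 0 in all libraries. That sum was 640 CPM in WT animal 1, 842 and 836 CPM in CM animals 1 and 3, and 350 to 387 CPM in the other 3 NIR libraries. The part of this difference in the Plk2 values was not tested. None of the 18 genes passed in WT or in CM, where the medians were -0.13 and -0.04; Klf2 had -1.79 ± 0.42 in WT (adjusted p = 0.227, and 0.0451 with the replicate block).

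Plk3 (chromosome 4, 117128655 to 117133963, minus strand), the relative of Plk2 that is activated by stress kinases, had fitted changes near 0. It stood at 7.87, 4.57 and 4.48 CPM in WT NIR and 8.57, 4.25 and 4.73 CPM in WT IR. Each IR library lay close to the NIR library of its own animal, and WT animal 1 was high in both. In CM it stood at 9.91, 7.61 and 9.28 CPM in NIR and 10.9, 8.81 and 7.26 CPM in IR, with animal 3 lower and animals 1 and 2 higher after irradiation. The log2 fold changes were 0.05 ± 0.31 in WT and 0.01 ± 0.31 in CM (adjusted p = 1 and 0.99996). An interval of 1.01 log2 units below to 0.93 above 0 (95%, unadjusted) remained around the difference of -0.04 between the responses. Plk3 overlaps Tctex1d4 on the other strand by 76 bases, a gene with a mean of 22.1 counts against 607 for Plk3.

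**Figure D2:**
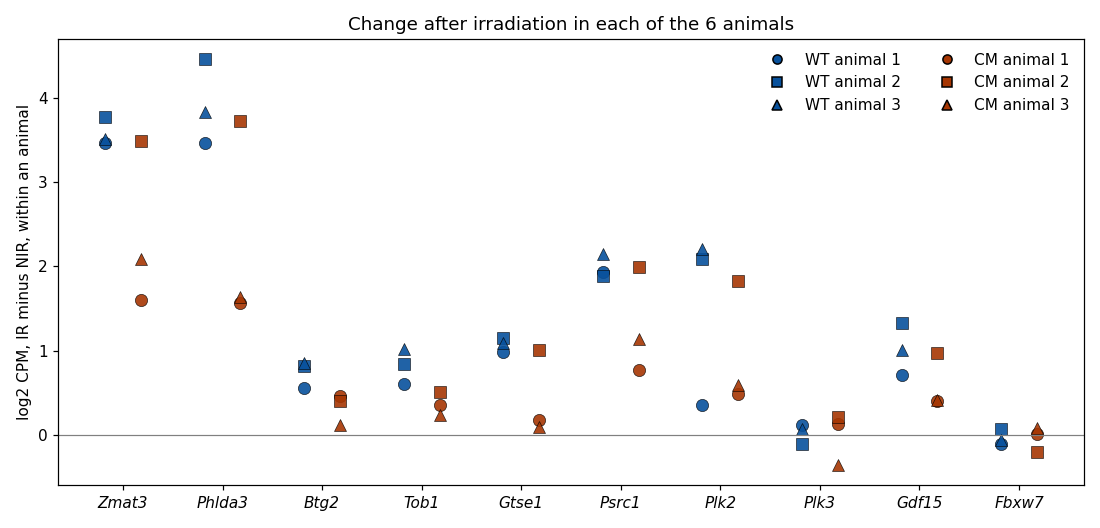
Change in log2 CPM (prior count 2) from the NIR to the IR library of each animal, for WT (blue) and CM (brown); symbols mark the animal. For Zmat3, Phlda3, Gtse1 and Psrc1 the square of CM animal 2 lies among the WT symbols and CM animals 1 and 3 lie lower, while for Btg2 and Tob1 all 3 CM animals lie under all 3 WT animals.

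Gtse1 and Psrc1 are known both as p53 targets and as cell cycle genes of the spindle: GTSE1 tracks microtubule plus ends and inhibits the depolymerase KIF2C, and PSRC1 recruits KIF2A. Gtse1 (chromosome 15, 85859707 to 85876573, plus strand) stood at 56.5, 41.9 and 44.6 CPM in WT NIR and 112, 92.9 and 95.5 CPM in WT IR. The groups did not overlap, and each WT animal was 1.98-fold to 2.22-fold higher after irradiation. The log2 fold change was 1.07 ± 0.27 (adjusted p = 0.304, and 0.0409 with the replicate block). In CM it stood at 54.2, 56.8 and 45.7 CPM in NIR and 61.4, 114 and 48.9 CPM in IR. Animal 2 was 2.01-fold higher after irradiation and animals 1 and 3 were 1.13-fold and 1.07-fold higher. The CM groups thus overlapped (0.52 ± 0.27, adjusted p = 0.99996, and 0.735 with the replicate block).

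Psrc1 (chromosome 3, 108383804 to 108388231, plus strand) stood at 20.3, 18.3 and 17.1 CPM in WT NIR and 77.4, 67.8 and 76.1 CPM in WT IR. The IR libraries lay 3.70-fold to 4.45-fold above the NIR library of their animal. The log2 fold change was 1.99 ± 0.42 (adjusted p = 0.169, and 0.0184 with the replicate block). In CM it stood at 14.3, 21.9 and 13.2 CPM in NIR and 24.5, 87.1 and 29.1 CPM in IR. CM animal 2 had the highest Psrc1 level of all 12 libraries after irradiation, and the other CM animals stood just above its NIR library. The fitted change in CM was 1.51 ± 0.41 (adjusted p = 0.99996, and 0.288 with the replicate block).

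Of 18 other polo kinase and spindle genes, among them Plk1, Plk4, Aurka, Kif2a, Kif2c and Tacc3, 16 had a lower fitted level in WT and 16 in CM, with 0 passing in each. Their medians were -0.10 in WT and -0.10 in CM, against -0.0089 and -0.0012 over all genes. The changes in WT ran from -0.21 for Plk4, the kinase of centriole duplication (adjusted p = 1), to 0.11, all below the 1.07 of Gtse1. Plk1, the main mitotic kinase, had -0.05 ± 0.09 in WT and -0.08 ± 0.09 in CM (adjusted p = 1 and 0.99996). The median change of the list was -0.09, -0.09 and -0.11 within WT animals 1, 2 and 3 and -0.12, -0.10 and -0.12 within CM animals 1, 2 and 3. With the animal as a block, 3 of the 18 fell in the mean response of both genotypes: Plk4, Cenpe and Top2a (adjusted p = 0.0423, 0.0360 and 0.0479), where 0.651% of all genes fell.

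**Figure D3:**
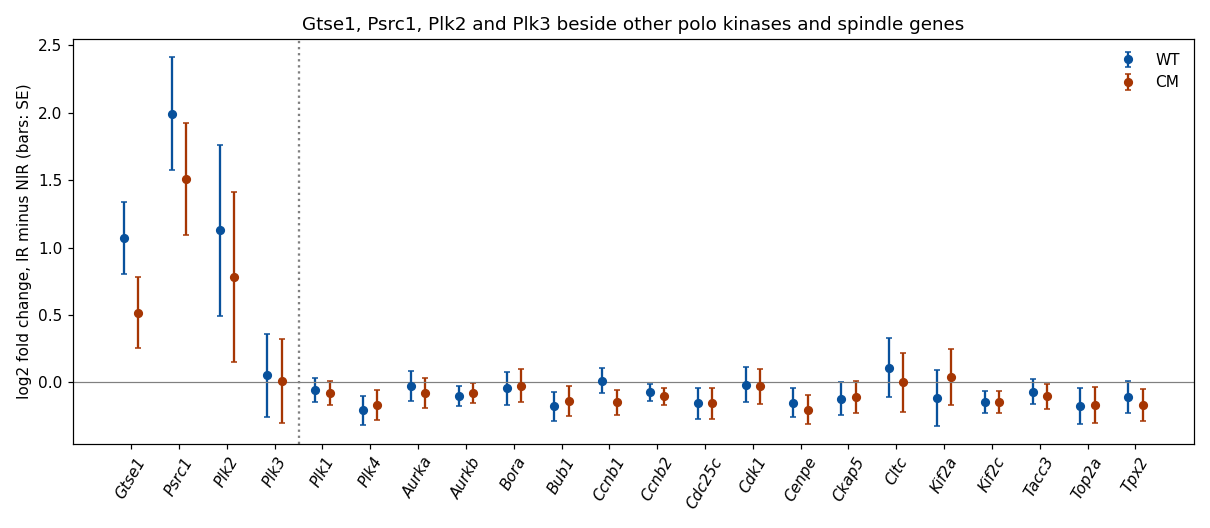
Log2 fold change, IR minus NIR, with its SE, in WT (blue) and CM (brown) for the 4 members with mitotic or polo kinase roles (left of the dotted line) and 18 other polo kinase and spindle genes. Gtse1 and Psrc1 stand at 1.07 and 1.99 in WT, while the 18 other genes lie between -0.21 and 0.11.

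The promoters of Gtse1 and Psrc1 were searched for letters known from cell cycle genes. A CCAAT box on either strand was found in 7 of the 14 member windows and in 37.4% of all windows, and the cell cycle homology region (TTTGAA or TTTAAA, either strand) in 6 of the 14 and in 27.6%. Gtse1 and Gdf15 held both, and the Psrc1 windows held CCAAT boxes without the homology region. Before the first Gtse1 start site (chr15:85859602-85859704, plus strand) stand a CCAAT box, an inverted one (ATTGG) and TTTAAA, shown in capitals below. The Psrc1 stretch (chr3:108383744-108383803, plus strand) holds a CCAAT box 41 bases before the start. A p53 element was searched as a pair of half-sites of the known consensus with a spacer of 0 to 13 bases, the central C and G kept and at most 3 mismatches in all. Such a pair was found in 15.6% of all windows, in 2 of the 14 member windows (Gtse1 and Plk3) and in 14 of 31 windows of the other p53 targets (45.2%). The Gtse1 pair had 1 mismatch and no spacer and lies at chr15:85859945-85859964, around the second start site of the table and in the first exon, untranslated, of a GENCODE M21 transcript. The Plk3 pair had 3 mismatches and a spacer of 12 bases. Elements outside these windows, such as those in introns, were not searched.
Gtse1 upstream: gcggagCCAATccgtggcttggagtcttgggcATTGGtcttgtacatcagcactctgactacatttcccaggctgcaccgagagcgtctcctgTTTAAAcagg
Psrc1 upstream: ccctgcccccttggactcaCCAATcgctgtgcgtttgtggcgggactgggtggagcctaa
Gtse1 p53-like pair: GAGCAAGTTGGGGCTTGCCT

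Gdf15 (chromosome 8, 70629393 to 70632456, minus strand) was the least abundant member, and the member whose fitted level in CM lay lowest against WT without irradiation. It stood at 1.36, 0.803 and 0.948 CPM in WT NIR and 2.24, 2.05 and 1.93 CPM in WT IR. The groups did not overlap (1.002 ± 0.23, adjusted p = 0.226, and 0.0790 with the replicate block; DESeq2 adjusted p = 0.00481). In CM it stood at 0.718, 0.521 and 0.675 CPM in NIR and 0.961, 1.04 and 0.909 CPM in IR. All CM libraries without irradiation lay under all such WT libraries, and the irradiated CM libraries were at the level of the unirradiated WT ones. The change in CM was 0.61 ± 0.24 (adjusted p = 0.99996, and 0.673 with the replicate block). Of the GDF15 receptor genes, Ret stood at 0.0665 to 0.320 CPM and Gfral was at 0 in 11 of the 12 libraries, with 0.0288 CPM in the NIR library of WT animal 1. Gdf15 is also raised by the integrated stress response, whose 10 listed genes had 0 passing in WT and in CM and medians of -0.19 and -0.13. Trib3 had -0.75 ± 0.23 in WT (adjusted p = 0.614).

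Fbxw7 (chromosome 3, 84815577 to 84979198, plus strand) had fitted changes near 0. It stood at 32.7, 33.3 and 34.1 CPM in WT NIR, 30.4, 34.9 and 32.8 CPM in WT IR, 38.5, 38.0 and 36.4 CPM in CM NIR and 38.9, 33.2 and 38.7 CPM in CM IR. The irradiated and unirradiated libraries overlapped in both genotypes, and the CM NIR libraries all lay above the WT NIR ones. The change after irradiation was -0.03 ± 0.09 in WT and -0.03 ± 0.09 in CM (adjusted p = 1 and 0.99996). The RefSeq table gives Fbxw7 3 start sites; p53 is known to act on 1 isoform, and gene counts do not separate isoforms. Of 10 genes for SCF subunits and FBXW7 substrates, 0 passed in WT or CM. The subunit genes Skp1a and Cul1 had -0.0023 ± 0.20 and -0.05 ± 0.13 in WT, and the substrate gene Notch1 had 0.45 ± 0.14 (adjusted p = 0.565).

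Counted over the members, 2 of 10 rose in WT (Zmat3 and Phlda3) and 0 fell, where 0.116% of the 14599 genes tested rose and 0% fell. At an unadjusted p under 0.05, 7 were higher (2.54% of all genes). With the replicate block 6 rose (Zmat3, Phlda3, Btg2, Gtse1, Psrc1 and Tob1), where 0.938% of all genes did. DESeq2 called 6, with Gdf15 in place of Btg2 (0.76% of all genes), and limma-voom 3 (0.205%). The 2 calls of edgeR ended without any 1 of the 6 WT libraries, in fits that called 0.00673% to 0.0269% of all genes higher. The log2 fold change of Zmat3 stayed between 3.49 and 3.64 without each WT animal in turn. In 7 of 10 members the WT IR libraries lay above all WT NIR libraries, which was so of 7.47% of all genes. Within animals, 8 of 10 were higher in the IR library of all 3 WT animals (19.9% of all genes) and of all 6 animals (5.93%); Plk3 and Fbxw7 were the exceptions.

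In CM 0 of 10 members passed in edgeR (0.00685% of all genes were called higher), and 0 with the replicate block. At an unadjusted p under 0.05, 5 were higher (1.38% of all genes) and 7 with the replicate block (3.63%). DESeq2 called Zmat3 and Phlda3 (0.123% of all genes), and limma-voom 0. Without both libraries of CM animal 2, a fit added after seeing the data, Zmat3 passed (1.86 ± 0.15, adjusted p = 0.00881, with 0.0203% of all genes). Groups did not overlap in 5 of 10 members, against 1.57% of all genes. In the mean of both responses 4 members rose (Zmat3, Phlda3, Psrc1 and Tob1; 0.301% of all genes) and 7 with the replicate block (1.42%), all but Plk2, Plk3 and Fbxw7. The fitted mean was 3.14 ± 0.34 for Zmat3, 3.25 ± 0.39 for Phlda3, 1.75 ± 0.29 for Psrc1 and 0.59 ± 0.10 for Tob1 (adjusted p = 0.00631, 0.00914, 0.0463 and 0.0463). Leaving out both libraries of any WT animal left 0 of these calls, in fits that called 0.00675% to 0.0271% of all genes higher. Leaving out those of CM animal 1 or 3 left 2, Zmat3 and Phlda3 (0.163% and 0.0608% of all genes). Leaving out those of CM animal 2 left all 4 (0.481% of all genes). Over all fits with 1 library or animal left out the change stayed between 2.66 and 3.32 for Zmat3 and between 2.73 and 3.44 for Phlda3.

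The other p53 targets give the setting for these counts. Of 31 listed genes, 4 rose in WT and 13 with the replicate block; in CM 1 rose and 0 with the block, and 0 fell in any of these fits. The median log2 change was 0.64 in WT and 0.29 in CM, beside 1.04 and 0.56 for the 10 members. In WT the smallest p values belonged to Trp53inp1 (2.10 ± 0.12), Ccng1 (1.79 ± 0.19) and Mdm2 (0.73 ± 0.09), with adjusted p of 8.75e-05, 0.0119 and 0.0274. In CM they belonged to Trp53inp1 (1.39 ± 0.12, adjusted p = 0.00421), Ccng1 (1.10 ± 0.18, adjusted p = 0.297) and Eda2r (3.65 ± 0.70, adjusted p = 0.547). The members and this list were chosen with results of these data known.

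**Figure D4:**
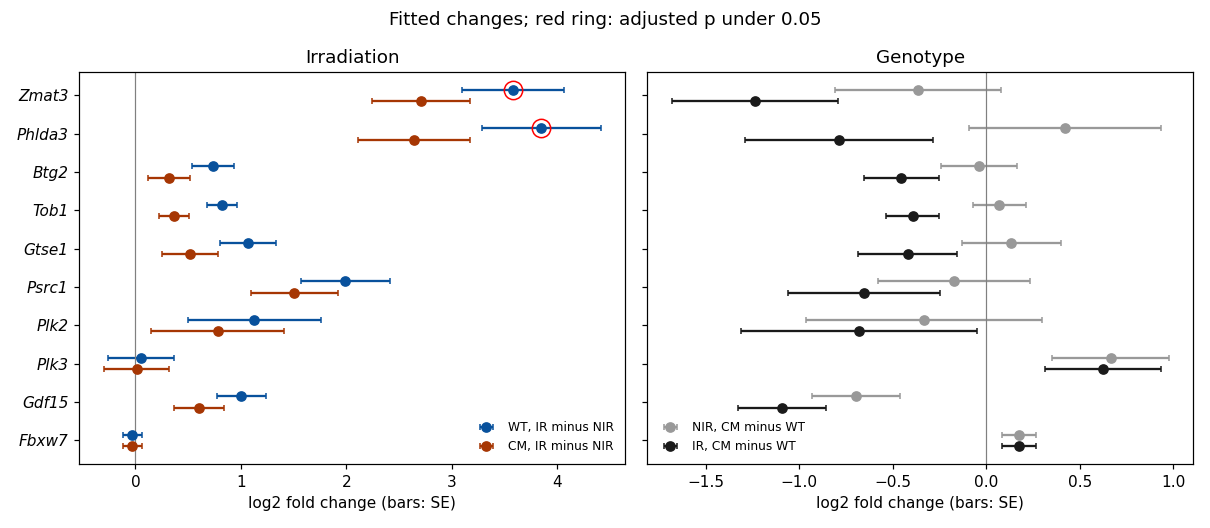
Fitted log2 fold changes with their SE for the 10 genes, after irradiation in WT and CM (left) and in CM against WT without and after irradiation (right); red rings mark an adjusted p under 0.05. The rings are at Zmat3 (3.58) and Phlda3 (3.85) in WT.

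The 3 CM animals differed in how far the members rose. CM animal 2 had the largest response of the 3 in 8 of 10 members and in 23 of 31 other p53 targets (74.2%), against 31.2% of all genes. Its response lay within the range of the WT animals in 6 of 10 members (Zmat3, Phlda3, Plk2, Gtse1, Gdf15 and Psrc1) and below it in 3, shares near the 46.5% and 28.4% of all genes. CM animal 1 lay below the WT range in 7 members and CM animal 3 in 8, against 25.2% and 32.4% of all genes. For Zmat3 the ratio of the IR to the NIR library was 11.1, 13.7 and 11.4 in WT animals 1, 2 and 3 and 3.04, 11.3 and 4.27 in CM animals 1, 2 and 3. For Phlda3 it was 11.1, 22.4 and 14.4 in WT and 2.97, 13.3 and 3.14 in CM. CM animals 1 and 3 were also those with the high mast cell and monocyte marker sums given above, and the part of these markers in the smaller ratios was not tested. CM animals 1 and 2 share a library number series with WT animal 1, and CM animal 3 shares the other with WT animals 2 and 3. In the first series the Zmat3 ratio was 11.1 in WT and 3.04 and 11.3 in CM, and in the second 13.7 and 11.4 in WT and 4.27 in CM.

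The difference between the responses of the genotypes was tested as an interaction. The fitted difference, CM minus WT, was below 0 for all 10 members, where that was so of 46.6% of all genes. For Fbxw7 it was near 0, with responses of -0.0281 in WT and -0.0282 in CM. The members are not independent of each other, so this count is not 10 separate results. Across the animals, the Zmat3 response correlated with those of Phlda3 and Gtse1 at 0.977 and 0.971. With those of Plk3 and Fbxw7 it stood at 0.259 and -0.445. For the difference 0 members passed (0% of all genes), and 0 in DESeq2 or limma-voom. At an unadjusted p under 0.05 there was 1 member, Tob1, against 0.39% of all genes. With the replicate block 0 passed as well, and 5 had an unadjusted p under 0.05 (Zmat3, Phlda3, Btg2, Gtse1 and Tob1; 1.75% of all genes). The fitted differences without the block were -1.21 ± 0.72 for Phlda3, -0.87 ± 0.62 for Zmat3, -0.55 ± 0.37 for Gtse1, -0.48 ± 0.57 for Psrc1, -0.46 ± 0.20 for Tob1 and -0.41 ± 0.28 for Btg2 (adjusted p = 0.99999 for each). For Plk2, Plk3 and Fbxw7 (-0.35 ± 0.89, -0.04 ± 0.44 and -0.00015 ± 0.13) the direction turned when 1 library was left out. Tob1 and Btg2 were the 2 members whose 3 CM responses lay under all 3 WT responses, which 3.56% of all genes did. The Tob1 responses in log2 CPM were 0.60, 0.85 and 1.03 in the WT animals, against 0.36, 0.51 and 0.25 in the CM animals. Those of Btg2 were 0.56, 0.82 and 0.86 in WT and 0.46, 0.40 and 0.12 in CM. The exact two-sided permutation test over animals gave p = 0.1 for both genes, the smallest that 3 against 3 can give. Responses without overlap fix that value, so it adds nothing to the ranges above. The same test gave 0.2 for Zmat3, Phlda3, Gtse1 and Gdf15, 0.3 for Psrc1, 0.4 for Plk2 and more for Plk3 and Fbxw7.

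CM and WT were last compared without and after irradiation; these contrasts use the same libraries as the responses above. Without irradiation 0 of 10 members passed, where 0.938% of all genes were higher and 0.685% lower in CM; 1 member, Gdf15, had an unadjusted p under 0.05, as did 6.5% of all genes in that direction (-0.70 ± 0.24, adjusted p = 0.188). The CM libraries lay under all WT libraries for Gdf15 (7.84% of all genes) and above them for Fbxw7 (8.14%). Fbxw7 had 0.17 ± 0.09 and Plk3 0.66 ± 0.31 (adjusted p = 0.410 and 0.356). DESeq2 and limma-voom also called 0. Without CM animal 2, Zmat3 (-0.47, adjusted p = 0.0492) and Psrc1 (-0.43, adjusted p = 0.0385) were lower. That fit was added after seeing the data and called 7.65% of all genes lower.

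After irradiation 8 of 10 members had a lower fitted level in CM (47.1% of all genes did) and 0 passed, where 0.274% of all genes were lower. At an unadjusted p under 0.05, 4 were lower (4.64% of all genes). The CM libraries lay under all WT libraries in 5 members, Zmat3, Btg2, Plk2, Gdf15 and Tob1, against 8.36% of all genes. Gdf15 came nearest the threshold, with -1.09 ± 0.23 (adjusted p = 0.0685). It passed in DESeq2 (adjusted p = 0.000454; 1.9% of all genes lower) and in limma-voom (adjusted p = 0.0469; 0.596% of all genes lower). Zmat3 had -1.24 ± 0.44, Phlda3 -0.79 ± 0.50, Tob1 -0.39 ± 0.14 and Btg2 -0.45 ± 0.20 (adjusted p = 0.265, 0.613, 0.270 and 0.410). Without both libraries of CM animal 2, 5 members were lower in CM: Zmat3 (-2.20 ± 0.15, adjusted p = 0.000783), Psrc1 (-1.46 ± 0.12, adjusted p = 0.00175), Phlda3 (-1.78 ± 0.32), Gtse1 (-0.86 ± 0.17) and Gdf15 (-1.15 ± 0.24), in a fit that called 1.76% of all genes lower. The fit without CM animal 2 was added after seeing the data. That animal had the largest response of the CM animals in 8 of 10 members. The p values of this fit thus rest on the values that set the animal apart. Leaving out any WT animal gave 0, with 0 genes of the whole table called lower. Leaving out CM animal 1 or 3 also gave 0, with 1 and 113 genes called lower.

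Likeness across the 12 libraries is given as a description, by the correlation of log2 CPM; the points share the irradiation and the animals. The gene most like Zmat3 was Eda2r, the ectodysplasin receptor gene of the p53 network (r = 0.993), followed by Exoc4 (0.990) and Zfp365 (0.988). The genes most like Phlda3 were Inka2 (0.988), Tnfsf4 (0.987) and 9530053A07Rik (0.985). Those most like Gtse1 were Eif2d (0.966), Hmcn2 (0.965) and Bbc3 (0.964), and those most like Btg2 were Ksr2 (0.958), Lad1 (0.955) and Rogdi (0.954). Among the members themselves, Btg2 lay closest to Tob1 (r = 0.950) and Plk2 (0.902), and stood at 0.670 with Zmat3 and 0.549 with Gtse1.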

How the data were processed

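The deposited count table gives whole-number counts per gene in the 12 libraries; the deposited RPKM table was used for levels per length and for alternatives. Per the labels' protocols, the libraries were stranded and depleted of ribosomal RNA. HTSeq 0.6.1p1, TopHat2, bcl2fastq 2.18.0.12 and the mm10 build are named in the submitters' processing notes. Settings, strand mode and annotation were not given in the sources used here, so antisense overlaps are uncertain.

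Counts were filtered with filterByExpr (minimum count 10, total 15), scaled with TMM and fitted in edgeR 4.0.16 (quasi-likelihood, R 4.3.3) with 1 mean per group and no animal term. Benjamini-Hochberg adjustment ran over all 14599 genes (threshold 0.05). SE is the fold change over the root of F. DESeq2 1.42.0 and limma-voom (limma 3.58.1), both on the counts, were alternatives. Fits with limma alone on log2(RPKM + 0.1) and log2(RPKM + 1) were others. The library names in the labels carry a number shared by 1 NIR and 1 IR library, read here as the animal; deviations of these pairs correlated at 0.67, 0.50 and 0.41 in WT and 0.79, 0.84 and 0.13 in CM, so the replicate block is the animal. CM animal 3 (NIR) was closer to CM animal 1 (IR), at 0.69. No 2 libraries agreed within sampling noise. The edgeR fit was tested on simulated counts drawn without an animal effect. That test does not cover the pairing of libraries by animal. The members, the 16 other lists and the rule for named genes (all members; in other lists the smallest p, calls and fixed relatives) were chosen with earlier results of these data known.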

Additional observations from a re-analysis of the deposited data

How the results depend on the processing

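The count of members called moved with the animal term, the tool and the animals included. In WT after irradiation it was 2, where 0.116% of all genes were called higher. It was 6 in DESeq2 (0.76% of all genes) and 6 with the replicate block (0.938%). It was 5 with only the 2 groups compared (0.606%) and 4 on log2(RPKM + 1) (0.349%). In CM it was 0 (0.00685% of all genes), and 2 in DESeq2 (0.123%). For CM against WT after irradiation it was 0 (0.274% of all genes lower). It was 1 in DESeq2 (1.9% lower), in limma-voom (0.596% lower) and on both RPKM scales (77 and 119 of 14599 genes lower). For the mean response it was 4 (0.301% of all genes), and 7 with the replicate block (1.42%) and 2 with library number series as a term (0.315%). The block changed no call in CM or in the difference of responses. With 1 library or 1 animal left out (animals other than CM animal 3 were added after seeing the data), the count ranged from 0 to 0 in WT, 0 to 1 in CM, 0 to 2 for CM against WT without irradiation, 0 to 5 after it, 0 to 0 for the difference of responses and 0 to 4 for the mean response. Some directions turned. With library number series as a term Plk3 in CM was -0.0316 and Gtse1 in CM against WT without irradiation -0.00446. The difference of responses of Fbxw7 was 0.000884 with no filter on low counts, 0.00102 on log2(RPKM + 0.1) and 0.000743 on log2(RPKM + 1). With 1 library or animal left out, Plk3 ranged over -0.329 to 0.368 in WT, -0.152 to 0.181 in CM, -0.16 to 0.189 in the mean response and -0.358 to 0.339 in the difference of responses. Fbxw7 ranged over -0.0803 to 0.0219, -0.0771 to 0.0492, -0.0552 to 0.0104 and -0.0508 to 0.0775 in the same order. The difference of responses of Plk2 ranged over -1.57 to 0.0221. For CM against WT without irradiation, Plk2 ranged over -0.699 to 0.884, Btg2 over -0.177 to 0.135 and Tob1 over -0.00976 to 0.197. The cause of these shifts was not tested. The members had at least 41 counts in every library, the fewest being those of Gdf15.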
